A study of Sus scrofa with 10 samples.

Results

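Sodium and calcium channel genes were followed in the nuclear RNA of cardiomyocytes sorted from minipig (Sus scrofa) hearts. The set was chosen by gene name and held 8 genes: CACNA1C, CACNA1D, CACNB2, CACNA2D1, CACNA2D2, SLC8A1, SCN7A and SCN4B. Of these, 7 had a row of that name among 35670 gene identifiers, and all 7 passed the filter on low counts together with the rest of 17251 tested genes. SCN4B had none and is described by its locus. There were 10 libraries of wild-type animals, numbered 1 to 10 by their labels. In 3 (libraries 8 to 10) deoxycorticosterone acetate (DOCA), a mineralocorticoid, had been combined with JK07, which the series title calls an agonist of the neuregulin receptor ERBB4. DOCA alone was given in 2 (libraries 6 and 7), and the 5 controls (libraries 1 to 5) had received phosphate-buffered saline. Chamber, dose, duration, age and sex are not given in the sources used here. The labels do not say that libraries come from separate animals, so each p-value measures a spread between libraries that may be technical.

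Each heartbeat of a cardiomyocyte begins with sodium entering through voltage-gated sodium channels, which depolarise the membrane. L-type calcium channels then open and let in the calcium that triggers release from the sarcoplasmic reticulum, and the sodium-calcium exchanger carries that calcium out again in return for sodium. An L-type channel is built of a pore-forming subunit, encoded by CACNA1C or CACNA1D, an intracellular beta subunit such as CACNB2, and an extracellular alpha-2-delta subunit such as CACNA2D1 or CACNA2D2, and the smaller subunits govern how many channels reach the membrane and how they gate. Atrial fibrillation, the condition the series is about, is known for altered L-type current and exchanger activity in atrial muscle.

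Libraries held 28.15 to 106.4 M counts in total. Outside 2 unplaced scaffolds, which took 77.55% to 90.8% of a library's counts, and outside the mitochondrial genome, 9.03 to 12.9 M counts remained in the DOCA plus JK07 libraries, 6.87 and 3.30 M in the DOCA libraries and 8.67 to 13.9 M in the control libraries, so that the DOCA libraries were the 2 shallowest. The share of tested genes listed at 0 was 7.30% to 15.6% in DOCA plus JK07 libraries, 34.9% and 39.1% in DOCA libraries and 5.48% to 15.25% in control libraries. The smallest TPM above 0 in a library corresponded to a coverage of 1 and was 0.612 in library 7 and 0.261 in library 6, so a gene listed at 0 there lay under a limit that its level elsewhere may also miss. Cardiomyocyte markers were present in every group, with a summed 1493 to 4126 TPM over 10 named markers in DOCA plus JK07 libraries, 1072 to 1448 TPM in DOCA libraries and 1532 to 1901 TPM in control libraries. Fibroblast markers were present too, with a summed 505.6 to 751.2, 200.9 to 1036 and 388.7 to 1044 TPM over 12 markers in those groups. In such bulk samples, fewer cells of a type and less RNA per cell cannot be told apart.

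The differences that passed the test all involved the DOCA libraries, and no gene of the set passed between DOCA plus JK07 and control. In DOCA against control, 4 of the 7 genes tested passed an adjusted p of 0.05, with CACNA2D2 higher and SLC8A1, CACNA1D and SCN7A lower. Of all tested genes 25.5% passed in that comparison, 5.73% higher and 19.7% lower. In DOCA plus JK07 against DOCA, 3 of 7 passed, all higher (SLC8A1, CACNA1D and SCN7A), against 17.0% of all tested genes, with 14.7% higher and 2.25% lower. Between DOCA plus JK07 and control, 0 of 7 passed, and 0 of the 17251 genes did in edgeR, where 803 had an unadjusted p under 0.05. DESeq2 called 51 higher and 64 lower in that comparison, none of them among the 7. The 3 comparisons share libraries, so a gene low in the DOCA group enters 2 of them.

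The median gene was also lower in the DOCA libraries. The median log2 fold change was -0.63 over all tested genes and -0.88 over the 7 genes in DOCA against control. It was 0.55 over all tested genes and 0.57 over the 7 genes in DOCA plus JK07 against DOCA. Scaling moved this shift: with upper quartile scaling it was -0.39 in DOCA against control, with 1523 genes higher and 2868 lower in place of 988 and 3403, and 0.31 in DOCA plus JK07 against DOCA, with 2095 higher and 752 lower in place of 2542 and 388.

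**Figure D1:**
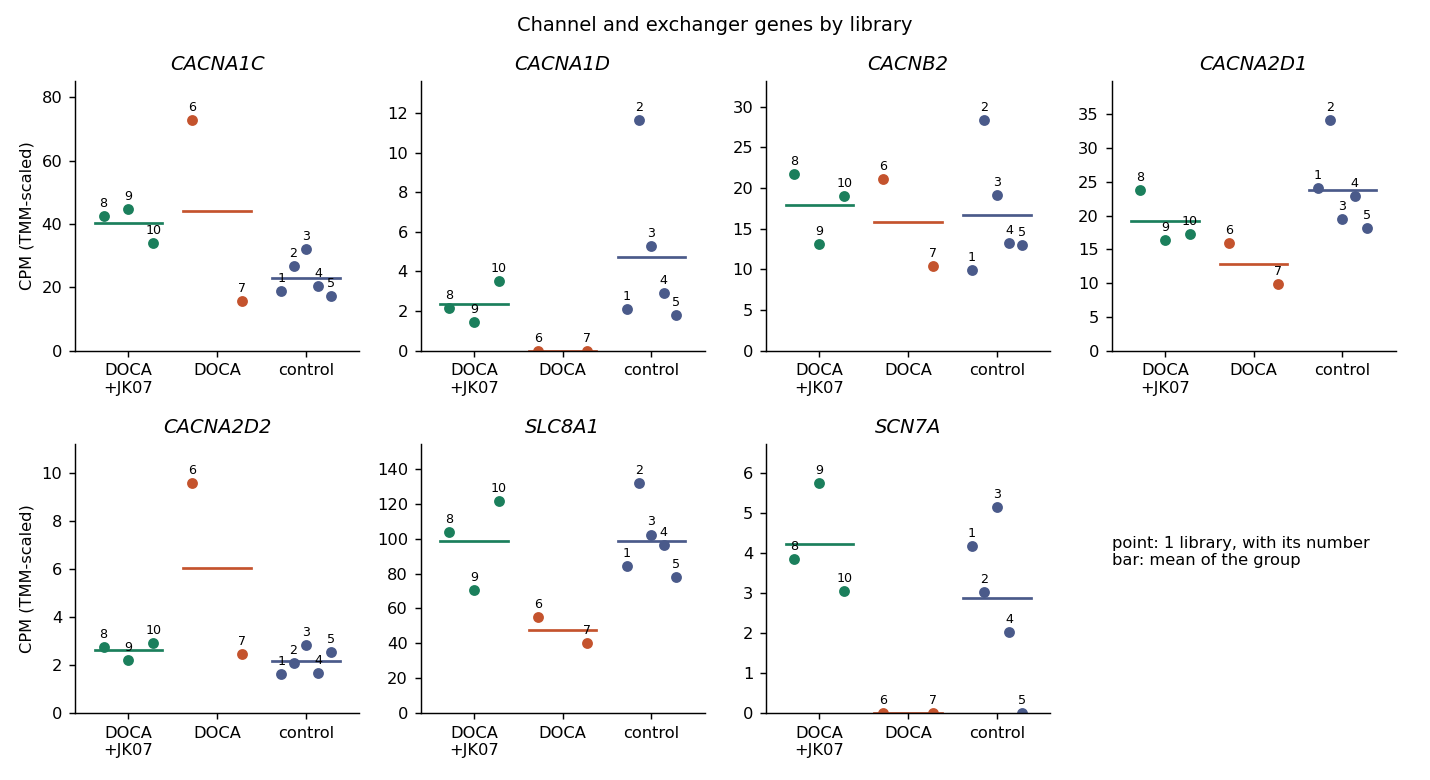
CPM after TMM scaling (vertical axis of each panel, starting at 0) of the 7 genes with a row, in the DOCA plus JK07, DOCA and control libraries. Each point is 1 library with its number and each bar is the group mean. CACNA1D and SCN7A sit at 0 in both DOCA libraries, SLC8A1 is lower in libraries 6 and 7 than in all others, and CACNA1C and CACNA2D2 are high in library 6 but not in library 7.

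CACNA1C encodes the main pore-forming subunit of the ventricular and atrial L-type channel. It lies on chromosome 5 (plus strand, 69275176 to 69448430, identifier ENSSSCG00000041764, build Sscrofa11.1, as are all positions here). It had 42.5, 44.6 and 34.0 CPM (counts scaled to the TMM-adjusted library total) in the DOCA plus JK07 libraries. It had 72.7 CPM in DOCA library 6 and 15.6 CPM in DOCA library 7, against 18.85, 26.6, 32.05, 20.4 and 17.3 CPM in control libraries 1 to 5. All DOCA plus JK07 libraries lay above all controls, whereas the 2 DOCA libraries lay on either side of both other groups.

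The fold of CACNA1C in DOCA plus JK07 against control was 0.81 on the log2 scale (SE 0.42), with an unadjusted p of 0.0861 and an adjusted p of 1 in edgeR's quasi-likelihood test. Groups that did not overlap in this comparison were found for 5.81% of all tested genes, 3.37% higher and 2.45% lower. Its log2 fold there was between 0.72 and 1.03 in every one of the 19 alternatives run, none of which passed. In DOCA against control the log2 fold was 0.94 (SE 0.47, adjusted p = 0.189). Without library 6 it was -0.57 (adjusted p = 0.303) and without library 7 it was 1.65 (adjusted p = 0.00351), so a single DOCA library decided its direction. Against DOCA, DOCA plus JK07 libraries gave -0.13 (SE 0.53, adjusted p = 0.917), and without library 6 1.37 (adjusted p = 0.0369).

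CACNA1D encodes the other cardiac L-type pore subunit, which opens at more negative voltages and is known for its part in the sinus node and atria. It lies on chromosome 13 (plus strand, 35436519 to 35909662, ENSSSCG00000011455). It had 2.14, 1.46 and 3.52 CPM in DOCA plus JK07 libraries, was listed at 0 in both DOCA libraries, and had 2.12, 11.6, 5.27, 2.93 and 1.78 CPM in control libraries 1 to 5. Every library outside the DOCA group held some, and control library 2 was the highest by far.

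Since the DOCA group was listed at 0, no fold is given for it. The adjusted p of CACNA1D was 0.00215 for DOCA against control and 0.00462 for DOCA plus JK07 against DOCA, and it stayed under 0.05 with any 1 library left out in both. With quality weights per library (limma voom) the adjusted p was 0.454 and 0.553 in those comparisons. Over the other alternatives it ranged from 9.47e-08 to 0.0573 and from 4.86e-06 to 0.186. The fit with quality weights called few genes at all: 67 higher and 94 lower of 17251 in DOCA against control. In DOCA plus JK07 against DOCA that fit called 1 higher and 4 lower. The log2 fold of CACNA1D in DOCA plus JK07 against control was -1.001 (SE 0.68, adjusted p = 1). In TPM, CACNA1D was at 0.457, 0.230 and 0.931 in DOCA plus JK07 libraries and at 0.394, 2.21, 0.880, 0.507 and 0.329 in control libraries. Several of these are under 0.612 TPM, the smallest above 0 that library 7 lists. Only the 0.230 TPM of a DOCA plus JK07 library is under 0.261 TPM, the smallest above 0 in library 6. TPM and CPM do not stand in the same proportion in each library, however. CACNA1C had 8.76 TPM at 72.7 CPM in library 6 and 4.59 TPM at 18.85 CPM in control library 1. A limit in raw TPM therefore does not tell which of these levels library 6 would have listed. Among the 5131 tested genes with a control mean of 2 to 6 CPM, 17.6% were at 0 in both DOCA libraries. The part of depth in the listing of CACNA1D at 0 was not tested. Its span overlaps that of DCP1A, on the opposite strand, which averaged 7.615 CPM over the 10 libraries against 3.085 CPM for CACNA1D. The strand setting of the authors' counting is not stated, so reads of the shared stretch cannot be assigned.

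CACNB2 encodes the main beta subunit of the heart, which carries the pore to the membrane. It lies on chromosome 10 (plus strand, 44421485 to 44886425, ENSSSCG00000011040). It had 21.7, 13.1 and 19.0 CPM in DOCA plus JK07 libraries, 21.1 and 10.4 CPM in DOCA libraries and 9.97, 28.3, 19.1, 13.25 and 12.95 CPM in control libraries. The 3 groups overlapped. The log2 fold was 0.18 (SE 0.47, adjusted p = 0.850) in DOCA plus JK07 against DOCA, 0.10 (SE 0.37, adjusted p = 1) in DOCA plus JK07 against control and -0.08 (SE 0.43, adjusted p = 0.9075) in DOCA against control. An unnamed gene on the opposite strand, ENSSSCG00000047783, lies inside its span at 44540495 to 44545368 and averaged 17.7 CPM, close to the 16.9 CPM of CACNB2 itself, so the same limit on strand holds here.

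CACNA2D1 encodes the main alpha-2-delta subunit of heart muscle, the target of gabapentin, which raises the number of channels at the surface. The gene is on chromosome 9 (plus strand, 97781090 to 98266969, ENSSSCG00000015402). It had 23.7, 16.4 and 17.3 CPM in DOCA plus JK07 libraries, 15.9 and 9.94 CPM in DOCA libraries and 24.1, 34.1, 19.5, 22.9 and 18.2 CPM in control libraries. Both DOCA libraries lay under every library of the other groups. Groups that did not overlap were found for 37.9% of tested genes in DOCA against control (10.2% higher and 27.6% lower) and for 40.1% in DOCA plus JK07 against DOCA (30.3% higher and 9.82% lower).

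The log2 fold of CACNA2D1 in DOCA against control was -0.88 (SE 0.31, adjusted p = 0.0659), which missed the threshold. It passed in DESeq2 (-0.82, adjusted p = 0.0468), without library 6 (-1.26, adjusted p = 0.0464) and in a limma fit of log2(TPM + 1) values (-1.05, adjusted p = 0.0147), and ranged up to an adjusted p of 0.288 over all alternatives. It was 0.57 in DOCA plus JK07 against DOCA (SE 0.32, adjusted p = 0.272), where it passed in the 3 limma fits of TPM values (0.98 to 1.29, adjusted p 0.0233 to 0.0348) and in no other alternative. It was -0.31 in DOCA plus JK07 against control (SE 0.26, adjusted p = 1). The limma fit of log2(TPM + 1) called 4933 of 17251 genes lower in DOCA against control, with a median log2 fold of -0.39. In DOCA plus JK07 against DOCA, the 3 limma fits of TPM values called 5269 to 6031 genes higher. Their median log2 fold over all genes was 0.45 to 1.19, the highest with log2(TPM + 0.1).

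CACNA2D2 encodes another alpha-2-delta subunit, best known from the brain. It lies on chromosome 13 (minus strand, 32845115 to 32988774, ENSSSCG00000011412), 2.45 Mb from CACNA1D. It had 2.76, 2.21 and 2.94 CPM in DOCA plus JK07 libraries, 9.57 and 2.48 CPM in DOCA libraries and 1.65, 2.10, 2.84, 1.67 and 2.56 CPM in control libraries. Library 6 was high, and library 7 lay inside the range of both other groups.

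CACNA2D2 was higher in DOCA than in control by 1.48 on the log2 scale (SE 0.44, adjusted p = 0.03845). Without library 6 the log2 fold was 0.19 (adjusted p = 0.717), and the call was also lost when any of libraries 1, 2, 4, 5 and 9 was left out (adjusted p 0.0563 to 0.0691). On the TPM scale the DOCA libraries, at 1.32 and 0.614, overlapped controls at 0.431 to 0.705, and limma on log2(TPM + 0.1) gave 0.59 (adjusted p = 0.319). In library 7 the 74 counts of CACNA2D2 amounted to a coverage of 0.9995, next to the smallest that library lists. The log2 fold of DOCA plus JK07 was -1.20 against DOCA (SE 0.50, adjusted p = 0.144) and 0.28 against control (SE 0.40, adjusted p = 1).

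SLC8A1 encodes the cardiac sodium-calcium exchanger. The gene is on chromosome 3 (plus strand, 99897162 to 100244759, ENSSSCG00000036418). It had 103.6, 70.75 and 121.2 CPM in DOCA plus JK07 libraries, 55.2 and 40.5 CPM in DOCA libraries and 84.55, 131.8, 102.3, 96.3 and 77.9 CPM in control libraries. Both DOCA libraries lay under all 8 others, and DOCA plus JK07 libraries spanned nearly the range of the controls.

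SLC8A1 fell in DOCA against control by 1.04 on the log2 scale (SE 0.29, adjusted p = 0.0300), compared with 0.63 for the median gene. The call was lost without library 2, 3, 4, 7 or 8 (adjusted p 0.05285 to 0.134) and under upper quartile scaling (-0.81, adjusted p = 0.0687), and over all alternatives adjusted p ran from 0.00477 to 0.134. It rose in DOCA plus JK07 against DOCA by 1.04 (SE 0.31, adjusted p = 0.0494), compared with 0.55 for the median gene. That call held in 2 of 10 fits that left out a library (without 2 or 9; adjusted p 0.0270 to 0.166 over the 10) and in 4 of 9 other alternatives. Between DOCA plus JK07 and control the log2 fold was -0.00 (SE 0.24, adjusted p = 1). In summed TPM, ventricular markers were also lowest in DOCA, at 130 to 341.7 TPM in DOCA plus JK07 libraries, 58.5 and 82.6 TPM in DOCA libraries and 114.5 to 143 TPM in control libraries, and atrial markers were at 1041 to 2892, 641.6 to 973.3 and 1274 to 1588 TPM in those groups. On the CPM scale of the test they did not stand under the median gene: in DOCA against control the median log2 fold was -0.17 for ventricular markers, with 1 of 5 tested passing, and -0.60 for atrial markers, with 1 of 9 passing, against -0.63 for all genes. Some markers of other cell types also fell in DOCA. Of 11 smooth muscle and pericyte markers, 4 fell in DOCA against control and the same 4 rose in DOCA plus JK07 against DOCA, with a summed 48.0 to 66.4 TPM in DOCA plus JK07 libraries, 15.3 and 32.0 TPM in DOCA libraries and 38.95 to 63.1 TPM in control libraries. The same held for 3 of 5 tested adipocyte markers, at a summed 11.5 to 27.2 TPM in DOCA plus JK07, 1.04 and 2.37 TPM in DOCA and 8.31 to 14.9 TPM in control libraries. It also held for 3 of 12 endothelial markers, of which 1 other rose in DOCA against control, at 56.8 to 103.7, 33.6 to 82.2 and 51.4 to 96.5 TPM in those groups. Of all tested genes, 19.7% fell in DOCA against control and 14.7% rose in DOCA plus JK07 against DOCA. In DOCA against control, 2 of 12 fibroblast, 1 of 9 macrophage and monocyte and 1 of 10 cardiomyocyte markers fell. The part of all these markers in the result for SLC8A1 was not tested.

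SCN4B encodes a beta subunit of the sodium channel that is abundant in heart and in large sensory neurons. No identifier carried its name. RefSeq places it on chromosome 9 at 45451473 to 45475606, where an unnamed identifier (ENSSSCG00000029199, minus strand, 45451478 to 45479773) was listed at 0 in 10 of 10 libraries. A value for SCN4B can therefore not be compared between groups, and a listing at 0 here does not show that the gene was silent.

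SCN7A encodes an atypical relative of the sodium channel pores that responds to sodium concentration rather than to voltage and is known from glia and neurons. It lies on chromosome 15 (minus strand, 72945288 to 73026656, ENSSSCG00000015914). It had 3.87, 5.76 and 3.05 CPM in DOCA plus JK07 libraries, was listed at 0 in both DOCA libraries, and had 4.185, 3.03, 5.16, 2.03 and 0 CPM in control libraries 1 to 5. Library 5, a control, thus shared the listing at 0.

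The adjusted p of SCN7A was 0.0413 for DOCA against control and 0.0469 for DOCA plus JK07 against DOCA, with no fold given for the same reason as above. Both calls were lost when any library other than library 5 was left out, with adjusted p up to 0.129, and with quality weights per library (adjusted p = 0.8286 and 0.7794). The fit with quality weights called few of all tested genes, as given for CACNA1D. The log2 fold of SCN7A in DOCA plus JK07 against control was 0.55 (SE 1.14, adjusted p = 1). Markers of Schwann cells and neurons were low everywhere: 14 such markers, 13 of them named in the files, summed to 3.39 to 6.87 TPM in DOCA plus JK07 libraries, 0 to 0.961 TPM in DOCA libraries and 0.495 to 2.01 TPM in control libraries. MBP, a myelin gene, was at 0 in both DOCA libraries and at 0.495 to 0.780 TPM in every other library, whereas SOX10, a Schwann cell factor, was highest of all in DOCA library 6, at 0.6695 TPM, and at 0 in library 7. In control library 5, SOX10 and CDH19 were at 0 as SCN7A was, and they were also at 0 in library 4, where SCN7A had 0.457 TPM. Their part in the result for SCN7A was not tested.

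**Figure D2:**
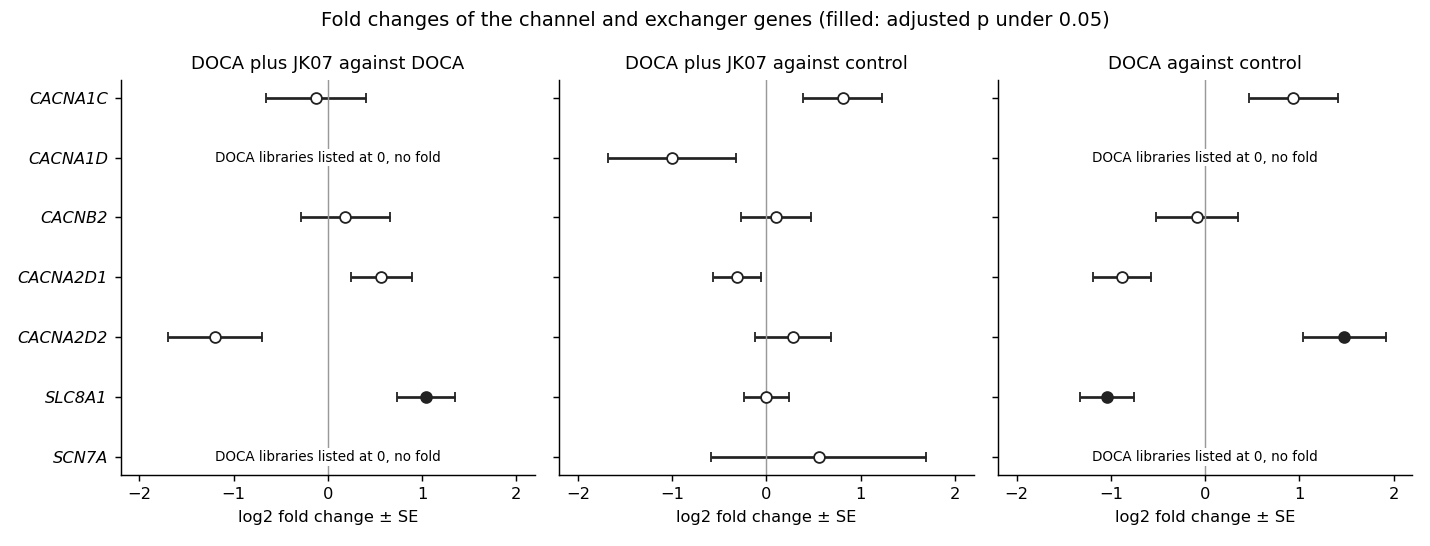
Log2 fold change of each gene (horizontal axis) with its SE in DOCA plus JK07 against DOCA, DOCA plus JK07 against control and DOCA against control; filled points have an adjusted p under 0.05 in edgeR. SLC8A1 is at 1.04 against DOCA and at -1.04 in DOCA against control, no point is filled in the middle panel, and genes with both DOCA libraries at 0 have no fold.

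All 7 genes are long, and nuclear RNA is rich in unspliced transcripts. Their spans ran from 81.4 kb (SCN7A) to 485.9 kb (CACNA2D1), longer than 83.6% to 99.1% of tested genes, whose median span was 16.6 kb. The files' annotation of CACNA1C covers 173.3 kb, against 431.5 kb in RefSeq, so reads from the rest of that locus would not be counted to it.

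Levels were compared between genes per transcript length, in TPM (abundance scaled by transcript length and library total). SLC8A1 had the highest mean of the 7 in each group, with 30.0 ± 14.4 TPM in DOCA plus JK07 (SD, n = 3), 8.15 ± 1.575 TPM in DOCA (n = 2) and 24.5 ± 5.76 TPM in control (n = 5). In single libraries it ranked above CACNB2 in 10 of 10, and it ranked under CACNA1C in DOCA library 6 (7.03 TPM against 8.76 TPM). CACNB2 had 10.5 ± 4.32, 4.93 ± 0.420 and 8.11 ± 3.755 TPM in those groups, and CACNA1C had 10.9 ± 1.49, 6.07 ± 3.81 and 5.39 ± 1.29 TPM. CACNB2 was above CACNA1C in 5 of 5 controls and in its mean over all 10 libraries. CACNA1C had the higher mean in DOCA plus JK07 and in DOCA. It was above CACNB2 in 1 of 3 DOCA plus JK07 and 1 of 2 DOCA libraries. CACNA2D1 had 4.51 ± 1.44, 1.72 ± 0.143 and 4.77 ± 1.45 TPM, and was under CACNA1C in 3 of 5 controls, so the order of this pair was not fixed by these libraries.

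CACNA2D2, SCN7A and CACNA1D were the 3 lowest, all near 1 TPM or under. CACNA2D2 averaged 0.849 ± 0.318 TPM in DOCA plus JK07, 0.966 ± 0.498 TPM in DOCA and 0.578 ± 0.131 TPM in control. SCN7A averaged 1.10 ± 0.0711 TPM in DOCA plus JK07 and 0.668 ± 0.453 TPM in control, and CACNA1D 0.539 ± 0.358 TPM and 0.864 ± 0.782 TPM in those 2 groups. The order among these 3 changed between groups, and their spreads overlap. The place of CACNB2 depends on the unit: its TPM was 59.9 to 60.5 times higher for its listed coverage than that of the median gene, against 1.00 to 3.61 times for the other 6 genes. By the deposited coverage, 0.126 to 0.992 in the 10 libraries, it would rank among the lowest.

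**Figure D3:**
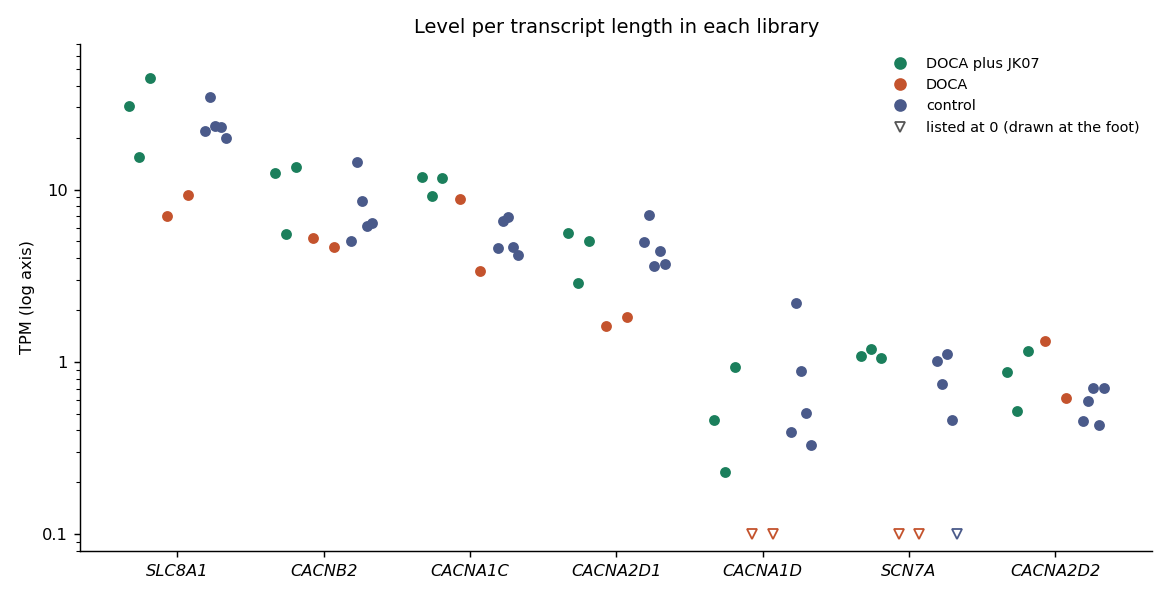
TPM of each gene on a log axis, with 1 point per library in DOCA plus JK07, DOCA and control; open triangles at the foot mark libraries listed at 0. SLC8A1 has the highest mean in each group, with CACNA1C above it in DOCA library 6, and CACNA1D and SCN7A hold all the listings at 0, including SCN7A in 1 control.

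Ratios of TPM within a library do not depend on its scaling. For each library the ratio of the other L-type subunits and of the exchanger to the pore gene CACNA1C was taken, and of CACNA2D2 to CACNA2D1. The ratio of CACNA2D1 to CACNA1C was 0.474, 0.313 and 0.431 in DOCA plus JK07 libraries, 0.185 and 0.540 in DOCA libraries and 1.08, 1.09, 0.515, 0.951 and 0.891 in control libraries. All DOCA plus JK07 libraries lay under all controls, by -1.13 on the log2 scale (SE 0.27). An exact two-sided permutation test of the 56 splits gave p = 0.0357, the smallest such a split can give, and 0.0893 after Benjamini-Hochberg adjustment over the 5 ratios. A single ratio at that smallest p could not pass after this adjustment unless most of the others reached it too.

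The other ratios to CACNA1C were also lower in DOCA plus JK07 than in control on average, and their groups overlapped. For SLC8A1 the ratio was 2.58, 1.68 and 3.77 in DOCA plus JK07 libraries, 0.803 and 2.745 in DOCA libraries and 4.74, 5.23, 3.37, 4.98 and 4.75 in control libraries, a log2 difference of -0.85 between DOCA plus JK07 and control. It was -0.67 for CACNB2 and -1.56 for CACNA1D. Each of these 3 had an exact permutation p of 0.0714 and an adjusted p of 0.0893, so none of the 4 ratios to CACNA1C passed. With so few splits, not passing does not show that the ratios were alike in the groups. They share CACNA1C and are not independent of one another. The ratio of CACNA2D2 to CACNA2D1 was 0.156, 0.180 and 0.228 in DOCA plus JK07 libraries, 0.813 and 0.337 in DOCA libraries and 0.0829 to 0.196 in control libraries. It was 0.60 higher in DOCA plus JK07 than in control on the log2 scale (exact permutation p = 0.25, adjusted p = 0.25), and both DOCA libraries lay above all 8 others. With 2 DOCA libraries, no test was made of their ratios.

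**Figure D4:**
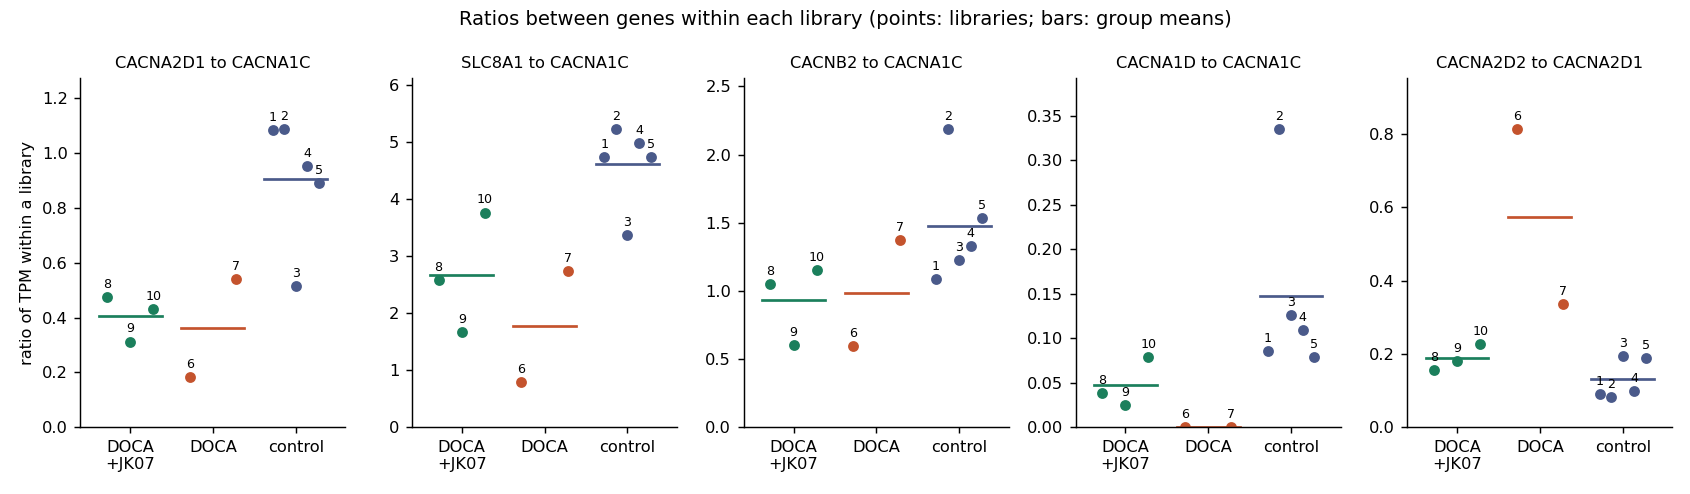
Ratio of TPM between genes within each library (vertical axis, starting at 0) in DOCA plus JK07, DOCA and control; points are libraries with their numbers and bars are group means. CACNA2D1 to CACNA1C is at most 0.474 in DOCA plus JK07 libraries and at least 0.515 in controls, and CACNA2D2 to CACNA2D1 is highest in the DOCA libraries.

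The remaining genes of the same families were counted as whole lists. Of 13 other sodium channel subunits, 7 were listed at 0 in every library (SCN1A, SCN2A, SCN3A, SCN4A, SCN10A, SCN11A and SCN2B) and 5 were tested. Among those tested, the beta subunit SCN3B averaged 1.75 TPM over the 10 libraries. It had 4.99, 21.1 and 3.30 CPM in DOCA plus JK07 libraries, 0 and 7.33 CPM in DOCA libraries and 1.66 to 3.39 CPM in control libraries. Library 6 lay under all others and library 7 above all controls, and SCN3B did not pass in any comparison. None of the 5 passed in DOCA against control or in DOCA plus JK07 against control.

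Of 21 other calcium channel subunits, 13 were at 0 throughout and 8 were tested. The most abundant were the alpha-2-delta gene CACNA2D3 at 4.41 TPM, the T-type pore CACNA1H at 2.05 TPM and the gamma subunit CACNG6 at 0.839 TPM. CACNA1H, a channel of low-voltage calcium entry, passed in DOCA against control. It had 14.4, 11.5 and 10.6 CPM in DOCA plus JK07 libraries, 33.6 and 7.80 CPM in DOCA libraries and 7.405, 5.81, 8.66, 8.495 and 4.02 CPM in control libraries. The log2 fold was 1.59 (SE 0.46, adjusted p = 0.0361), and it was 0.18 (adjusted p = 0.756) without library 6. The call was kept in 4 of the 10 fits that left out a library. None of the 8 passed in the other comparisons. Among 8 other sodium-calcium exchangers 5 were tested and none passed, with SLC8B1, the mitochondrial exchanger, at 2.39 TPM, SLC8A2 at 1.35 TPM and SLC24A3 at 0.692 TPM.

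Of 27 channel partners and regulators, 23 were named in the files and 19 tested. The most abundant were RRAD, a small GTPase that restrains L-type channels, at 38.9 TPM, AHNAK, a scaffold bound to the beta subunit, at 15.3 TPM and ANK3, the ankyrin that anchors sodium channels, at 11.01 TPM. None of these passed in any comparison. CBARP, which binds beta subunits and lowers calcium channel activity, had 4.495, 4.33 and 3.92 CPM in DOCA plus JK07 libraries, 22.7 and 7.29 CPM in DOCA libraries and 3.69, 2.34, 3.05, 2.90 and 3.43 CPM in control libraries. Both DOCA libraries lay above all others. CBARP rose in DOCA against control by 2.28 (SE 0.35, adjusted p = 0.00113) and fell in DOCA plus JK07 against DOCA by 1.82 on the log2 scale (SE 0.40, adjusted p = 0.0121). The first of these held with each library left out (adjusted p up to 0.00500), and the other was lost without library 6 (-0.78, adjusted p = 0.0741).

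DLG1, a membrane scaffold, falls outside the naming rule and was added after its values were seen. It had 13.6, 16.8 and 17.5 CPM in DOCA plus JK07 libraries, 6.12 and 10.3 CPM in DOCA libraries and 10.9 to 17.7 CPM in control libraries. Both DOCA libraries lay under all others. DLG1 fell in DOCA against control, with a log2 fold of -0.84 (SE 0.26, adjusted p = 0.0428), and rose in DOCA plus JK07 against DOCA, with 0.96 (SE 0.28, adjusted p = 0.0431). Each call was kept in 2 of 10 fits that left out a library.

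AKAP7, which anchors protein kinase A at the L-type channel, FGF11, a fibroblast growth factor homologue that stays inside the cell, and RANGRF, a protein of channel trafficking, were listed at 0 in both DOCA libraries and above 0 in all others. They passed in DOCA against control and in DOCA plus JK07 against DOCA with each library left out, at adjusted p of at most 0.00784. Like CACNA1D they were low elsewhere, at 1.49 to 3.55 CPM for AKAP7, 0.427 to 1.49 CPM for FGF11 and 0.335 to 0.761 CPM for RANGRF. Of all 17251 tested genes, 4791 (27.8%) were at 0 in both DOCA libraries, with no condition on the other libraries. In all, 6 of the 19 partners passed in each of those comparisons, 1 higher and 5 lower in DOCA against control, and 5 higher and 1 lower in DOCA plus JK07 against DOCA. The background shares given above are 25.5% and 17.0% of tested genes. None passed in DOCA plus JK07 against control.

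**Figure D5:**
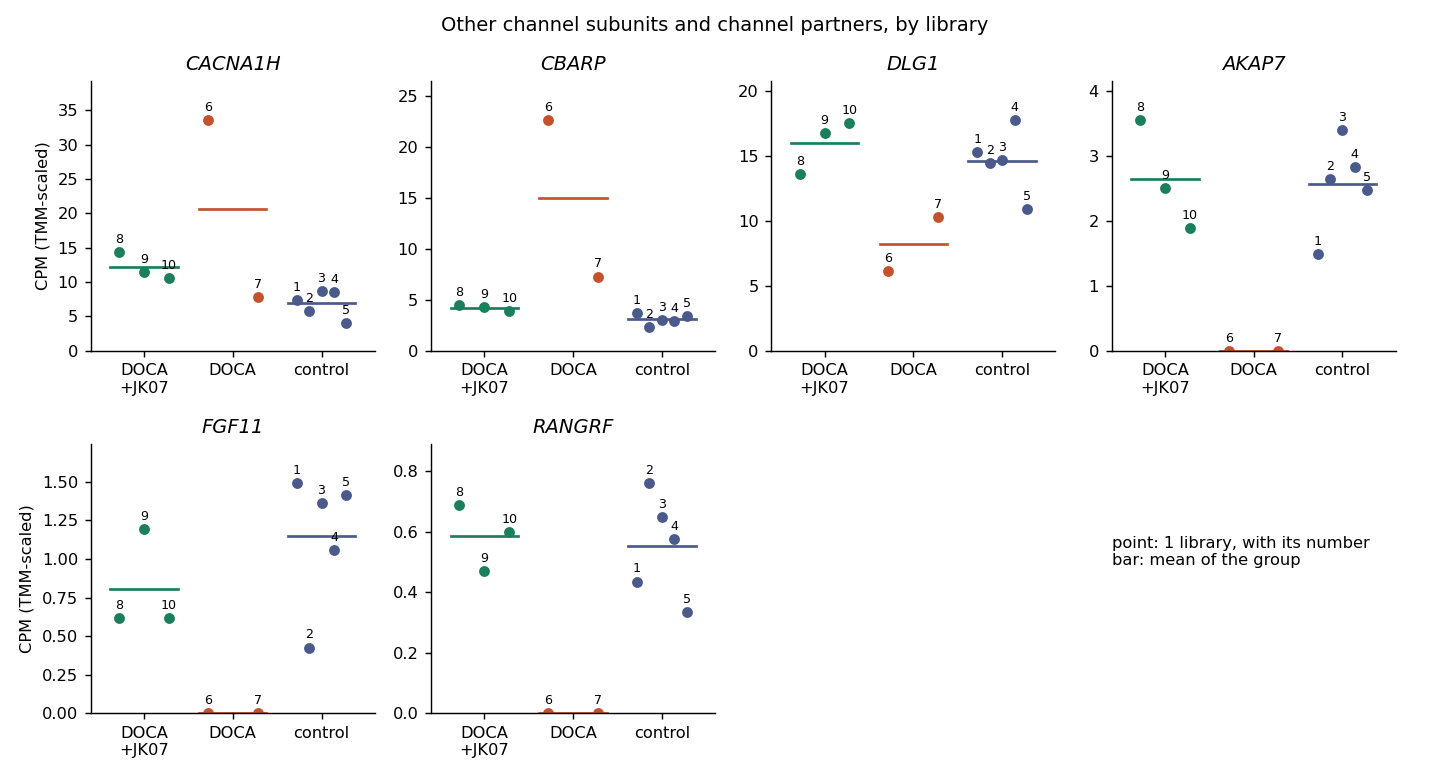
CPM after TMM scaling of 6 other family members and partners that passed in at least 1 comparison, in DOCA plus JK07, DOCA and control; points are libraries with their numbers and bars are group means. CBARP is highest in the DOCA libraries, DLG1 is lowest there, and AKAP7, FGF11 and RANGRF are at 0 there.

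Profiles over the 10 libraries were compared with 12407 named tested genes by the root mean square (RMS) difference of centred log2(CPM + 1) values, as a description. The closest to SLC8A1 were HMGN3 (RMS 0.0972) and RABGAP1 (0.114), against 0.560 for the median gene. HMGN3 averaged 3.02 CPM in DOCA plus JK07, 0.986 CPM in DOCA and 3.30 CPM in control. CACNA2D1 was closest to UQCRFS1 (0.122), a subunit of respiratory complex III, and THUMPD1 (0.129), and CACNB2 to GAREM1 (0.139) and ATOSA (0.171). CACNA1C was closest to SEMA6B (0.210) and C19orf47 (0.24), and CACNA2D2 to IKBKB (0.170) and FTSJ1 (0.177), all of which averaged highest in DOCA. CACNA1D was closest to LRRC9 (0.276) and TMEM144 (0.305) and SCN7A to XPA (0.445) and SMYD4 (0.451), and these 4 were listed at 0 in both DOCA libraries as well.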

How the data were processed

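Nuclear RNA was isolated with TRIzol and sequenced after TruSeq RNA library preparation, per the labels' protocols. The submitters' processing notes name SAMtools, StringTie, edgeR and the build Sscrofa11.1; aligner, versions and annotation release are not given in the sources used here. Each library came with coverage signal and TPM for 35670 identifiers, per the file headers. The authors deposited estimated counts as whole numbers without gene names; with identifiers sorted, zeros matched those of the coverage tables in 99.998% of values, against 62.6% after a shift of 1 line.

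The main test was edgeR 4.0.16 (R 4.3.3): TMM scaling, filterByExpr, quasi-likelihood F test, 1 model of all 10 libraries with group as the only term, and Benjamini-Hochberg adjustment over 17251 genes per comparison. SE was derived from the log2 fold change and the square root of its F statistic. The biological coefficient of variation was 0.873. The test script was tried on simulated data. Limma 3.58.1 and DESeq2 1.42.0 served as alternatives. Named genes were the 8 members, per list and comparison up to 4 genes past the threshold with the lowest p, and the 3 of highest mean TPM per list; DLG1 was added to these. Some genes that the rule would name are not reported here. Members and lists were chosen with earlier results of these data known.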

Additional observations from a re-analysis of the deposited data

Results flagged for a closer look

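Among 19 sets of control values checked (7 genes in CPM and in TPM, and 5 ratios), 3 held a library far from the other 4. Chance gives such a gap in about 1 of 20 sets. The sets are not independent, since each gene enters in both units and the ratios are built from the same TPM. The number flagged can therefore not be set against that rate. SLC8A1 had 34.5 TPM in control library 2, against 19.85 to 23.5 TPM in the other controls. The ratio of CACNA1D to CACNA1C was 0.335 in control library 2, against 0.0787 to 0.126 in the others. The ratio of SLC8A1 to CACNA1C was 3.37 in control library 3, against 4.74 to 5.23 in the others. The cause of these gaps was not tested.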

How the results depend on the processing

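No paired analysis was possible because libraries carry running numbers 1 to 10 and no number is shared between groups. In DOCA against control, 4 of 7 genes passed; 0 did with quality weights per library (limma voom), 2 with only the 2 groups fitted, 2 with limma on log2(TPM + 1) without a filter, and 1 to 3 when a library was left out. In DOCA plus JK07 against DOCA, 3 passed; 1 did under upper quartile scaling, 1 without a filter, 0 with quality weights, and 1 to 2 when a library was left out. Over all genes, the fit with quality weights called 67 higher and 94 lower of 17251 in DOCA against control. In DOCA plus JK07 against DOCA that fit called 1 higher and 4 lower. In DOCA plus JK07 against control, 0 of the 7 genes passed under each alternative run. No ratio passed with TPM + 0.1 or with counts per gene span, where a single ratio could not have passed alone after adjustment. With a library left out, too few splits remain for a ratio to pass. With a library left out, the log2 difference in the ratio of CACNA2D1 to CACNA1C lay between -1.32 and -0.95.

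Of the refitted fold changes of the 7 genes, 23 changed sign, 60 lost a call, 10 gained one without changing sign and 306 did neither. CACNB2 in DOCA against control was 0.14 under upper quartile scaling, 0.038 with quality weights and -0.69 to 0.33 with a library left out; against DOCA, DOCA plus JK07 gave -0.041 under upper quartile scaling and -0.23 to 0.79 with a library left out, and -0.061 to 0.38 against control. CACNA1C in DOCA plus JK07 against DOCA was 0.23 with quality weights, 0.86 with limma on log2(TPM + 1), with or without a filter, 0.98 on log2(TPM + 0.1) and -0.85 to 1.37 with a library left out, and -0.57 to 1.65 in DOCA against control. CACNA2D2 in DOCA plus JK07 against DOCA ran from -1.86 to 0.09. SLC8A1 in DOCA plus JK07 against control was 0.00 under upper quartile scaling, 0.19 in each limma fit on TPM and -0.18 to 0.19 with a library left out. The causes were not tested.

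With 2 DOCA libraries, the shallowest of the 10, the spread behind the p-values of their comparisons comes mostly from the other 8. Outside the DOCA libraries, CACNA1D, SCN7A and CACNA2D2 each had some values under 0.612 TPM, the smallest above 0 in library 7, and some above it. Among their values above 0, only that of CACNA1D in library 9 (0.230 TPM) was under 0.261 TPM, the smallest in library 6. As described for CACNA1D, such limits in raw TPM do not tell which levels library 6 would have listed. The part of depth in the results for these genes was not tested. Overlapping genes limit CACNA1D and CACNB2.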
